A study of Drosophila subpalustris with 2 samples.

Results

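The gene models described here carry more RNA on the opposite strand than on the strand on which they were annotated, and share few or none of their counts with an annotated model on the other strand. They numbered 141, which is 1.07% of the 13119 models in blocks 1 to 4 of the deposited tables and 0.796% of all 17716 models. The blocks follow the tables' own order: locus-tag numbers rise within a block and fall where the next of the 7 blocks starts. A model was taken when, in both libraries, its antisense count was above its sense count and reached 10, and when the unstranded column lacked under 5% of the sum of its sense and antisense counts. A read that lies on 2 models of opposite strands is counted for each of them in the stranded columns but is ambiguous in the unstranded column, so this loss marks overlap with an annotated model. The models were thus chosen by their antisense, sense and unstranded counts, and these levels are given as a description without a test.

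The data came from whole adults of Drosophila subpalustris, a fly whose draft genome the study assembled and annotated. Polyadenylated RNA was sequenced from 2 pools of 10 to 20 flies, males and females together, as biological replicates, from stocks kept on a cornmeal diet at room temperature. The sources used here give neither the strain and age of the flies nor the sex ratio of the pools. Both pools form 1 group, so no condition was compared. The sums of sense counts were 26141490 and 25544996 in replicates 1 and 2, and those of antisense counts 219012 and 217820, or 0.831% and 0.845% of the strand-specific counts. The same reads served as evidence when the models were predicted, per the series' design text. The tables pair no locus tag with a gene name, so no function can be given for a model, and the tissue was not checked against marker genes.

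A directional library keeps the strand of each transcript. Gene prediction places a model on a strand from its reading frame, its splice signals and the aligned evidence. Transcripts from the strand opposite to a protein-coding gene, called natural antisense transcripts, are well known in Drosophila, where neighbouring genes often lie close together on both strands. Annotations built around coding sequence can also leave out long non-coding RNAs and the untranslated ends of genes. This is background, and none of it was tested here.

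The models were spread over all 4 blocks in similar shares. They numbered 31 in block 1, 34 in block 2, 37 in block 3 and 39 in block 4, which is 0.981%, 1.15%, 1.20% and 0.993% of the models there. In replicate 1 their antisense counts ran from 10 to 5521 with a median of 49, and in replicate 2 from 10 to 10825 with a median of 35. Their sense counts had a median of 6 in replicate 1 and 4 in replicate 2, with highest values of 1786 and 2286. These 141 models held 25.7% of the antisense counts of blocks 1 to 4 in replicate 1 and 33.9% in replicate 2, or 29.8% ± 5.7 (SD, n = 2), against 0.0355% and 0.0274% of the sense counts of those blocks.

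**Figure D1:**
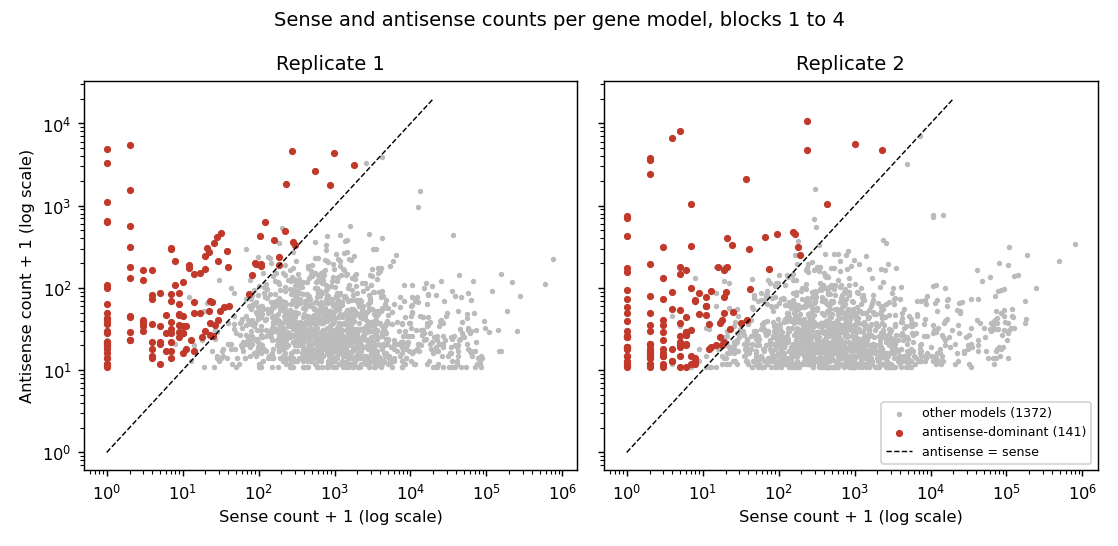
Antisense count against sense count per gene model (both plus 1, log scales), with 1 panel per library. Red points are the 141 antisense-dominant models, and the dashed line marks equal counts. Grey points are 1372 models of blocks 1 to 4 with 10 or more antisense counts in both libraries that were not antisense-dominant in both. The red points lie above the line by the choice of the models, and many sit at the left edge with few or no sense counts.

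The antisense share of strand-specific counts in these models was near complete in some and near even in others. Its median over the 141 models was 90.2% in replicate 1 and 91.7% in replicate 2, a mean of 90.9% ± 1.0 (SD, n = 2). For scale, 1372 models of blocks 1 to 4 had 10 or more antisense counts in both libraries but were not antisense-dominant in both. Their median antisense shares were 3.50% and 5.05%. Antisense-dominant models of any loss were left out of these. In 21 of the 141 the share reached 99% in both libraries, in 55 it reached 90% in both, and in 18 it stayed under 75% in both. The median share was 87.5% and 90.9% in the 49 models with 10 to under 20 antisense counts in their lower library. It was 94.5% and 98.3% in the 11 models with 1000 or more in both.

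**Figure D2:**
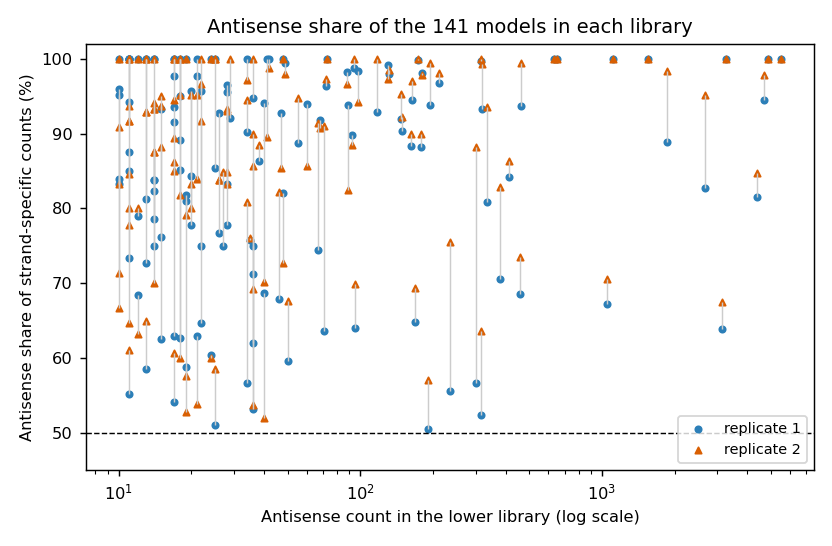
Antisense share of strand-specific counts (percent) against the antisense count in the lower of the 2 libraries (log scale) for the 141 models. Blue circles are replicate 1, orange triangles replicate 2, a grey line joins both values of a model, and the dashed line marks 50%. The 11 models with 1000 or more antisense counts in both libraries range from near-complete antisense shares to 63.8%.

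Most of these models had few counts on their annotated strand. In 83 (58.9%) the sense count was under 10 in both libraries, and in 21 more it reached 10 in 1 library only. The remaining 37 had 10 or more sense counts in both libraries beside their larger antisense counts. The 104 models short of 10 sense counts in at least 1 library made up 3.39% of the 3065 models of blocks 1 to 4 that were not detected on the sense strand by that standard. No sense count at all was found in 14 models, whose antisense counts had medians of 24 in replicate 1 and 20.5 in replicate 2.

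The 10 models with the most antisense counts per 1000000 sense counts (CPM) held 66.6% of the antisense counts of the 141 models in replicate 1 and 79.8% in replicate 2. CPM is not corrected for model length, so this order is one of read numbers. ACLKA7_007864 of block 4 led with antisense counts of 4680 and 10825 in replicates 1 and 2, beside 272 and 234 sense counts. Its antisense level was 179 and 424 CPM, a mean of 301 ± 173 (SD, n = 2). Replicate 2 was the higher library for this model on both scalings used below.

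In 5 of the 10 the sense strand was nearly empty. ACLKA7_004469 of block 1 had 4841 antisense counts in replicate 1 and 8041 in replicate 2, against 0 and 4 sense counts. ACLKA7_015476 of block 3 had 5521 and 6621 antisense counts against 1 and 3 sense counts. ACLKA7_004103 of block 1 had 3274 and 3557 antisense counts against 0 and 1 sense counts. These models carried RNA of the opposite strand almost alone, in both libraries. ACLKA7_009990 of block 4 had 1107 and 3784 antisense counts against 0 and 1 sense counts. ACLKA7_013979 of block 2 had 1549 and 2396 antisense counts against 1 sense count in each library.

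The other 4 carried RNA of both strands. ACLKA7_003412 of block 1 had 3150 antisense counts in replicate 1 and 4735 in replicate 2, beside 1786 and 2286 sense counts, the most sense counts of any of the 141 models. ACLKA7_013096 of block 2 had 4384 and 5557 antisense counts beside 992 and 1005 sense counts. ACLKA7_014120 of block 2 had 2659 and 4721 antisense counts beside 556 and 236 sense counts. In all of these the antisense counts were higher in replicate 2, while the sense counts of ACLKA7_014120 were lower there. ACLKA7_008640 of block 4 had 1849 and 2134 antisense counts beside 230 and 36 sense counts.

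Among models with 100 or more antisense counts in both libraries, 2 had no sense count in either. ACLKA7_010481 of block 4 had 634 antisense counts in replicate 1 and 754 in replicate 2, where a sense count of 0 allows a sense share of up to 0.473% and 0.398%. ACLKA7_013984 of block 2 had 649 and 715 antisense counts, where a sense count of 0 allows up to 0.462% and 0.420%. These limits take a count of 0 to allow 3 counts, and cover counting error only. The two-sided exact 95% intervals are wider. They reach down to antisense shares of 99.42% and 99.51% in ACLKA7_010481, and of 99.43% and 99.49% in ACLKA7_013984.

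The models next to the 141 in tag order show how low the share of the opposite strand could be in the same libraries. In the 6 adjacent models with the most sense counts, the antisense share lay between 0.00520% and 0.0628%. The most abundant of them, ACLKA7_007865 beside ACLKA7_007864, had 85170 sense counts in replicate 1 and 125764 in replicate 2 against 10 and 32 antisense counts. In 34 of the 141 models in replicate 1, and in 34 in replicate 2, the sense share was below the library-wide antisense share of 0.831% and 0.845%. Of these, 28 and 26 had a sense count of 0, many on few antisense counts. The exact 95% binomial interval of the sense share lay wholly below the library-wide share in 7 models in each library. That library-wide share includes the antisense counts of the 141 models themselves, which were 22.6% and 30.1% of all antisense counts.

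Antisense counts were then compared between the 2 libraries, a difference the choice of the models did not use apart from the minimum of 10 in both. A two-sided exact binomial test was made on the antisense counts of all 4469 models with a sum of 10 or more, scaled by the trimmed mean of M-values (TMM) of the sense counts. It sets the difference of the 2 libraries against sampling noise alone, and no conditions are compared. At a Benjamini-Hochberg adjusted p of 0.05, 55 of the 141 models (39.0%) differed, beside 21.3% of all models tested. Beside them, 28.5% differed of the 1759 other models with 10 or more antisense counts in both libraries. The 1759 come from all 7 blocks and include antisense-dominant models that were not members. Within the members, calls were more frequent at higher counts. Of the 37 members with 100 or more antisense counts in both libraries 28 differed, and of the other 104 members 27 did. The same split was not made for the other models, so whether depth accounts for the gap to them was not tested. With TMM scaling 34 of the 55 were higher in replicate 2 and 21 in replicate 1, beside 13.5% and 7.81% of all models tested. With library totals 66 differed, of which 24 were higher in replicate 2 and 42 in replicate 1, beside 22.3% of all models tested, 6.13% higher in replicate 2 and 16.2% in replicate 1. The balance of directions turned with the scaling both in the members and over all models.

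The size of these differences lay near that of other models with antisense counts. The median absolute log2 ratio of antisense counts was 0.62 in the 141 models and 0.58 in the 1759 other models with 10 or more in both libraries. At least 2-fold differences were found in 40 of the 141 models (28.4%), beside 39.7% of all models with a sum of 10 or more and 25.9% of the 1759. The minimum of 10 in both libraries keeps extreme ratios of low counts out of the 141 and the 1759, but not out of all models. The median log2 ratio of replicate 2 to replicate 1 was 0.27 with TMM (quartiles -0.40 to 0.76) and turned to -0.25 with library totals. TMM moves every log2 ratio by 0.52 against library totals.

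**Figure D3:**
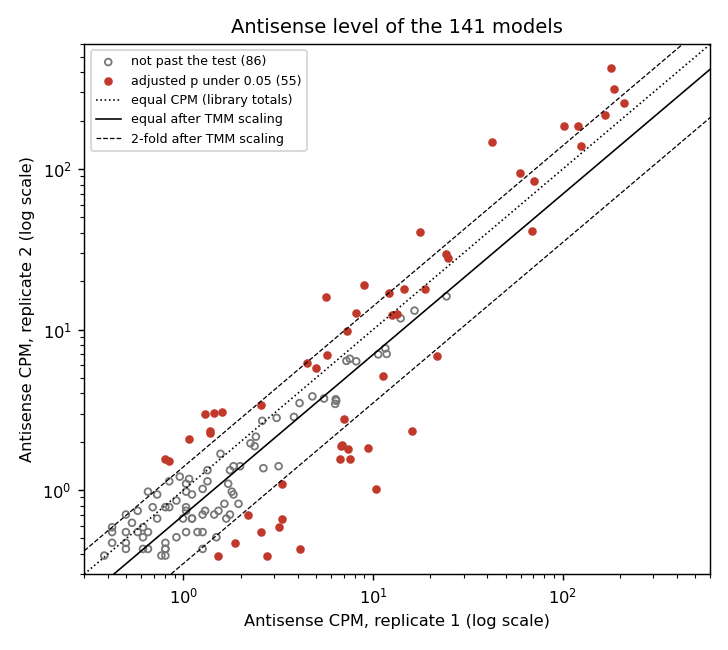
Antisense CPM in replicate 2 against replicate 1 for the 141 models (log scales). Filled red points are the 55 models past the exact binomial test with TMM scaling, open points the other 86. The dotted line marks equal CPM, the solid line equal values after TMM scaling and the dashed lines 2-fold differences from it. The 10 models of highest antisense CPM lie above both the dotted and the solid line.

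The 10 models of highest mean antisense CPM were higher in replicate 2, but the next in that order was not. The log2 ratios of the 10 ran from 0.67 to 2.32 with TMM and from 0.15 to 1.81 with library totals. Each of the 10 passed the exact binomial test with TMM, the weakest at an adjusted p of 4.21e-59. The next model, ACLKA7_014591 of block 2, had 1799 and 1050 antisense counts, a log2 ratio of -0.23 with TMM and -0.74 with library totals. Without these 10 models, the median log2 ratio of the other 131 was 0.18 with TMM. For comparison, the 1229 models of all blocks with a mean sense CPM in the range of the 10, from 76.5 to 301, had a median sense log2 ratio of 0.20 with TMM (quartiles -0.58 to 0.78) and -0.31 with library totals. Of these 1229 models, 56.4% had a ratio above 0 with TMM.

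Among the 67 models with an antisense sum of 100 or more, the largest ratio towards replicate 2 was that of ACLKA7_009990, described above with 1107 and 3784 antisense counts. Its log2 ratio was 2.32 (95% counting interval 2.23 to 2.42) with TMM. ACLKA7_014007 of block 2 followed with 148 and 407 antisense counts, which gave a log2 ratio of 2.01 (1.74 to 2.29). ACLKA7_007864 and ACLKA7_007839 came next, with log2 ratios of 1.76 and 1.72. The last of these, in block 4, had 462 and 1036 antisense counts while its sense counts were 31 and 6.

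Towards replicate 1, ACLKA7_015032 of block 3 had 272 and 26 antisense counts, which gave a log2 ratio of -2.84 (-3.48 to -2.25). ACLKA7_008229 of block 4 had 108 and 11 antisense counts and no sense count in either library, a log2 ratio of -2.74 (-3.79 to -1.85). ACLKA7_008584 of block 4, with 420 and 60 antisense counts, had a log2 ratio of -2.26, and ACLKA7_003717 of block 1, with 246 and 47, of -1.84. All 8 models named for their ratio were lower or higher in the same library with library totals. They were chosen for their ratio, so these values overstate what a further pair of libraries would show.

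The balance of the strands within a model does not depend on scaling. A two-sided Fisher exact test of sense and antisense counts against library was made on all 12625 models with 10 or more strand-specific counts in each library. After Benjamini-Hochberg adjustment 21 of the 141 models (14.9%) differed in antisense share, beside 9.09% of all models tested and 36.3% of the 1759 other models with 10 or more antisense counts in both libraries. The rule keeps both shares of a member above 50%, which limits how far they can differ. Of the 21, 20 had the higher antisense share in replicate 2 and 1 in replicate 1, beside 6.53% and 2.57% of all models tested. The higher share was in replicate 2 for 71.8% of the 1148 models called in the whole table. Whether that direction is more frequent in the 141 models was not tested. The median absolute difference in share between the libraries was 6.05 percentage points over the 141 models, and the largest was 37.4.

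The 51 members with 20 or more sense counts in sum, taken without regard to that test, had a median sense log2 ratio of -0.32 and a median antisense log2 ratio of 0.14 with TMM. The 21 models were selected by the test for a change in the balance of the strands, so a gap between their sense and antisense ratios follows from the selection. With TMM, 15 of the 21 had a sense log2 ratio below 0 and 17 an antisense log2 ratio above 0. Without scaling, sense counts were lower in replicate 2 in 18 of the 21 and antisense counts higher in 13.

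The model with the lowest adjusted p was ACLKA7_014120. Antisense counts made up 82.7% there in replicate 1 (81.4 to 84.0, exact 95% binomial interval) and 95.2% in replicate 2 (94.6 to 95.8), with an adjusted p of 3.76e-73 by the Fisher exact test. ACLKA7_008640 had an antisense share of 88.9% and 98.3%, with an adjusted p of 4.17e-37. ACLKA7_007864 had 94.5% and 97.9%, with an adjusted p of 1.61e-24. All 3 rank among the 10 models of highest antisense CPM, where small differences can pass the test. The share of ACLKA7_007864 moved by less than the members' median absolute difference of 6.05 percentage points. The shares of ACLKA7_014120 and ACLKA7_008640 moved by more than that median. Sense counts fell from 556 to 236 in ACLKA7_014120 and from 230 to 36 in ACLKA7_008640.

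A wider gap was found in ACLKA7_012290 of block 2. It had 365 antisense and 280 sense counts in replicate 1, and 300 antisense and 40 sense counts in replicate 2. Its antisense share was 56.6% and 88.2%, with an adjusted p of 1.44e-23 by the Fisher exact test. Its antisense counts alone did not pass the exact binomial test, with a log2 ratio of 0.27 (0.04 to 0.49) and an adjusted p of 0.0758. The sole model of the 21 with the lower share in replicate 2 was ACLKA7_001196 of block 1, with 175 and 40 antisense counts beside 11 and 17 sense counts.

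Across the 51 models with 20 or more sense counts in sum, the log2 ratio of antisense counts and that of sense counts had a Pearson r of 0.270 and a Spearman rho of 0.314. Over 1690 other models with 10 or more antisense counts in both libraries and the same sense minimum, the values were 0.142 and 0.157. All points share the same 2 libraries, so these weak correlations describe the models only.

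The tag order gave a further property that the choice did not use. Another member stood at the next or previous tag for 17 of the 141 models (12.1%), in 7 pairs and 1 run of 3. Of the 12978 other models of blocks 1 to 4, 257 (1.98%) had a member at the next or previous tag. No test was made of this difference. Antisense counts of the other adjacent models were near the background, as 25 of those 257 (9.73%) had 10 or more antisense counts in both libraries, against 11.03% of all 12978.

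**Figure D4:**
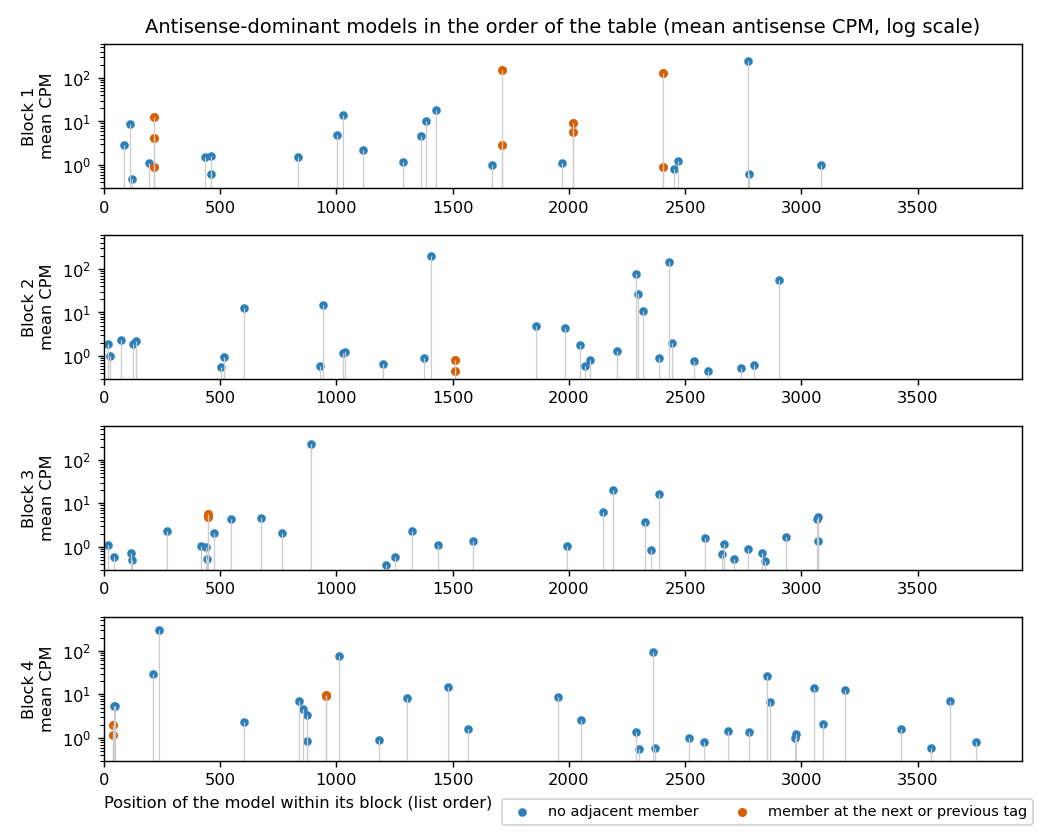
Mean antisense CPM over both libraries (log scale) of the 141 models by their position in the listed order of each block. Orange points are the 17 models with another member at the next or previous tag, blue points the other 124. The models are scattered over each block, and the adjacent ones stand in 8 places.

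The run of 3 was in block 1. ACLKA7_001195 had 27 antisense counts in replicate 1 and 20 in replicate 2, ACLKA7_001196 had 175 and 40, and ACLKA7_001197 had 350 and 318. The middle model was lower in replicate 2 with a log2 ratio of -1.58 (-2.11 to -1.08), whereas its neighbours had 0.12 (-0.79 to 1.01) and 0.41 (0.19 to 0.64). Adjacent members therefore did not move together in this run.

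The pair with the most antisense counts was ACLKA7_003411 and ACLKA7_003412 of block 1. ACLKA7_003411 had 81 and 72 antisense counts, a log2 ratio of 0.38 (-0.10 to 0.86), beside 1.14 (1.07 to 1.20) for ACLKA7_003412. In the next pair, ACLKA7_004103 had a log2 ratio of 0.67 (0.60 to 0.74). Its neighbour ACLKA7_004104, with 33 and 14 antisense counts, had -0.69 (-1.70 to 0.26). Both pairs join a model of over 1000 antisense counts per library to one of fewer than 100.

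In block 4, ACLKA7_008584 had 420 and 60 antisense counts, and its neighbour ACLKA7_008585 had 303 and 195, a log2 ratio of -0.08 (-0.35 to 0.18). In block 1, ACLKA7_003717 had 246 and 47, and ACLKA7_003718 had 308 and 180, a log2 ratio of -0.22 (-0.50 to 0.05). In 7 of the 8 places the counting intervals of the log2 ratio of adjacent members did not overlap. The same count was not made for pairs of members that are not adjacent, nor for other adjacent models. It therefore does not set adjacent members apart from other pairs. The intervals hold counting error only, with no further libraries to show the spread between pools.

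The adjacent models carried sense counts of very different size. The mean sense CPM of a member's adjacent models had a median of 7.91 (quartiles 1.20 to 34.6), against 15.6 for the other models of blocks 1 to 4. Of the 257 adjacent models that were no members, 70.0% had 10 or more sense counts in both libraries, against 77.2% of the 12978 models that were no members. In 88 of the 141 models an adjacent model had at least as many sense counts as the member had antisense counts, in both libraries. In 42 the antisense counts exceeded the sense counts of every adjacent model in both libraries, and 11 lay between.

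In 4 of the 10 models of highest antisense CPM, every adjacent model had fewer than 100 sense counts in each library. For ACLKA7_004469, the 4841 and 8041 antisense counts stood beside ACLKA7_004468 with 1 and 0 sense counts and ACLKA7_004470 with 3 and 0. ACLKA7_015476 had adjacent models of 32 and 9, and of 21 and 2 sense counts. ACLKA7_009990 had adjacent models of 96 and 29, and of 0 and 0 sense counts. ACLKA7_003412, in a pair described above, had ACLKA7_003411 with 3 and 2 sense counts and ACLKA7_003413 with 3 and 10. The antisense RNA of these 4 models was thus counted where the adjacent models had few sense reads or none.

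At the other end, ACLKA7_007864 lies next to ACLKA7_007865, the adjacent model with the most sense counts. The sense log2 ratio of ACLKA7_007865 was 1.11, and the antisense log2 ratio of ACLKA7_007864 was 1.76. ACLKA7_017251 of block 3, with 44 and 17 antisense counts, lies next to ACLKA7_017250 with 57638 and 93220 sense counts. The log2 ratios there were 1.24 for the adjacent sense counts and -0.82 for the antisense counts, of opposite sign on both scalings. Over the 122 members with an adjacent model of 20 or more sense counts, the Pearson r of these ratios was 0.217 and the Spearman rho 0.190. Over 1415 other models of blocks 1 to 4 with 10 or more antisense counts in both libraries they were 0.141 and 0.129. The strand of each model and the distance between models were not used here. Some pairs lost equal counts in the unstranded column, but whether they share reads was not tested. ACLKA7_007864 and ACLKA7_007865 each lost 3 and 1 counts, and ACLKA7_008640 and its adjacent model ACLKA7_008639 each lost 56 and 19. ACLKA7_017251 lost 2 and 0, as did ACLKA7_017252 on its other side, while ACLKA7_017250 lost 7 and 3. For the 122 models without loss in both libraries, which adjacent models face the antisense RNA is not known.

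The loss of counts in the unstranded column was 0 in both libraries for 122 of the 141 models. Just inside the limit of 5% were ACLKA7_017251, with 4.44% in replicate 1, and ACLKA7_010207, with 3.70% in replicate 1. Just outside were ACLKA7_014147, with 4.90% and 5.88%, and ACLKA7_014409, with 2.63% and 6.25%. At the count limit, ACLKA7_015798 had 10 antisense counts in each library and ACLKA7_012618 had 20 and 10, while ACLKA7_012276 with 35 and 9 and ACLKA7_013694 with 20 and 9 were left out.

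At the limit of antisense above sense, ACLKA7_009581 had 190 antisense against 186 sense counts in replicate 1, and ACLKA7_005049 had 25 against 24. ACLKA7_013600, with 27 of each in replicate 2, and ACLKA7_015254, with 40 antisense against 42 sense counts in replicate 2, were left out. A small change in counts would move such models across the limit.

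Antisense-dominant models with a large loss were fewer and had more counts per model. In blocks 1 to 4, 201 models met the strand and count conditions at any loss, and 26 of them lost at least 50% in both libraries. Those 26 had median antisense counts of 204 and 170 and median antisense shares of 94.5% and 96.4%. The medians of the 141 models were 49 and 35 counts. None of the 26 had another of their kind at an adjacent tag. No background share was computed for so small a group, so this is no contrast with the 141 models. The other 34 models between these groups had median antisense counts of 48 and 35.5.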

How the data were processed

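Polyadenylated RNA of 2 pools of whole adult flies (1 µg each) went into directional libraries, per the labels' protocols. The submitters' processing notes name fastp and STAR 2.7.11b. The series' design text names BRAKER 3.0.6 for the gene models. The sources used here state neither the alignment settings nor the read layout. The authors deposited raw counts per model in 3 columns without a header (unstranded and each strand, as STAR lays out its gene counts), and the last column was taken as sense. The first 4 rows are totals and were left out. No genome sequence or annotation was used here, so no sequence, position or length is given.

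The members and lists were chosen with earlier results of these data known. CPM was computed per 1000000 sense counts. A count of 0 allows 3 counts, or 0.115 and 0.117 CPM. Ratios used TMM factors from the sense counts of all models (edgeR 4.0.16, R 4.3.3). Sense ratios used a pseudocount of 0.5 counts. Exact binomial and Fisher tests (scipy 1.17.1, Python 3.11.15) ran on the whole table with Benjamini-Hochberg adjustment and were tested on simulated data. The simulated counts held sampling noise only, with no spread between pools and no PCR copies. They therefore do not show how often the tests call models falsely in these libraries. P-values compare 2 libraries, and intervals (95%, exact) cover counting error only, not the spread between pools. PCR copies of a molecule were not told apart, so the intervals may be too narrow and the p-values too small even for counting error. Models were named by rule: the 10 of highest antisense CPM, the 4 of largest ratio in each direction, those with no sense count, the adjacent members, those next to each limit of the choice, the most abundant adjacent models and the 4 of lowest adjusted p for the share. DESeq2 1.42.0 size factors were an alternative scaling.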

Additional observations from a re-analysis of the deposited data

How the results depend on the processing

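Of 44 alternatives, 32 left the value within 1.5 times the count or within the replicate spread or interval, 10 moved it and 2 reversed it. The 32 include the Pearson r of antisense ratios with adjacent sense ratios at a distance of 5 tags. It was 0.070 there against 0.217 at adjacent tags, and counts among the 32 only because the interval over the members is wide. The median log2 ratio of antisense counts was 0.27 with TMM. Its binomial interval, 0.02 to 0.41, treats the models as independent although all share the same 2 libraries. It therefore gives no spread between pools and served only to sort the alternatives. The median reversed to -0.25 with library totals of sense counts and to -0.28 with library totals of antisense counts, because TMM shifts all ratios. Of 55 models past the exact binomial test with TMM, 61.8% were higher in replicate 2, against 36.4% of 66 with sense totals. The number of models was 92 at an antisense minimum of 20, 51 at a minimum of 50 and 52 with antisense at least 10 times sense, since these rules take fewer models. It was 196 without replicate 1 and 245 without replicate 2, since 1 library sets fewer conditions. The median antisense share was 94.0% at a minimum of 50 and 89.0% as the share of summed counts, and 91.7% and 90.2% without replicate 1 and without replicate 2. Members with another member nearby numbered 28 within 2 tags and 36 within 5, which widen the window. They numbered 22 without replicate 1 and 26 without replicate 2, over the larger sets. The larger of the adjacent models had a median of 14.8 sense CPM. Without replicate 1 and without replicate 2, the members held 33.9% and 25.7% of the antisense counts, and the median adjacent sense CPM was 6.73 and 10.7. With 2 libraries, either alone always lies within the SD of their mean. No paired analysis was possible because the series holds 1 group. Counts of 10 to 20 give wide intervals for single shares and ratios.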

Other observations

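Outside blocks 1 to 4, 37 models met the same conditions of strand, count and loss. Their median antisense counts were 54 in replicate 1 and 36 in replicate 2, with highest values of 2268 and 4864. Their median antisense shares were 90.6% and 90.9%, and their median sense counts were 7 and 5. By the exact binomial test with Benjamini-Hochberg adjustment over all models, 13 of the 37 differed between the libraries. Beside them, 21.3% of all models tested differed. So did 28.5% of the 1759 models outside the 141 with 10 or more antisense counts in both libraries, which include these 37. At adjacent tags stood 2 of the 37, and no background share was computed for this.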
